A study of Mus musculus with 36 samples.

Results

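The sequences described here are the methylated, CpG-poor windows of the embryonic mouse brain. The autosomes were divided into windows of 1 kb, and a window was a member if 5 to 29 of its CpGs were covered at least 5 times in all 4 wild-type (WT) libraries of the 3 ppm diet and if the reads pooled over those CpGs and libraries were at least 70% methylated. 30262 of the 63512 windows with 5 or more such CpGs met this rule (47.6%). The members were thus chosen by the levels of the WT embryos on the 3 ppm diet, so no test against those 4 embryos is given, and their values are a description.

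The study addressed the influence on 5-methylcytosine of the folic acid (FA) supply of the dam and of the enzyme TET1. 36 single brains of embryonic day 11.5 (E11.5) were profiled, 1 library each, by oxidative bisulfite reduced representation bisulfite sequencing. All embryos were of the 129S6.Cg strain and came from heterozygous dams kept on a diet with an excess of FA (30 ppm), a control amount (3 ppm) or hardly any (0.1 ppm), with 4 litters per diet. All 3 diets also contained the antibiotic succinyl sulfathiazole (SST), which suppresses gut bacteria that make folate, so that no group was free of it. They were WT, heterozygous (HET) or homozygous (KO) for the Tet1 tm1Koh allele, in which a cassette at the first coding ATG, carried by every cell, abolishes the full-length transcript. By the study, a short isoform from a later start site is still transcribed in KO brains of this stage, while neither protein was seen by immunoblot in WT or KO brains. By the labels the 30 ppm diet had 3 WT, 5 HET and 6 KO embryos, the 3 ppm diet 4, 3 and 5, and the 0.1 ppm diet 2, 3 and 5. Embryos of a litter share a dam and each litter had 1 diet, so that p-values rest on embryos that are not fully independent. Genotype and the labelled phenotype went together in part. Of the embryos used, 8 of 9 WT and 8 of 10 HET embryos are labelled norm, but only 7 of 15 KO embryos, the others being labelled NTD (neural tube defect) or inHB.

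Libraries held 23.2 to 197 M (M, 1e6) CpG calls, and the deepest, WT replicate 1 of 3 ppm, stood above all others (at most 95 M). HET replicate 2 of 0.1 ppm was the shallowest and was left out, a choice also made in the study. The genotype labels were checked at 1 CpG in an intron of Tet1 (mm10, chr10:62884019-62884019), which read 0 to 7.32% in 7 WT, 8.33 to 69.2% in 11 HET and 69.6 to 100% in 15 KO libraries. It was chosen as the CpG with the largest difference between these WT and KO libraries among 304 in the gene, so their separation follows from the choice, in which the HET libraries and the 3 below, known from earlier results to stand apart, had no part. These 3 libraries went against their labels there. The library labelled KO replicate 1 of 30 ppm read 45% on 20 reads (95% Wilson interval 25.8 to 65.8%), and it is not in any mean or test below unless stated. The libraries labelled WT replicate 2 of 30 ppm and WT replicate 2 of 0.1 ppm read 36.36% (33 reads, 22.2 to 53.4%) and 40% (15 reads, 19.8 to 64.3%). They were kept under their label. The members' levels and the counts of called members in KO against WT, HET against WT and 30 against 0.1 ppm in WT are also given without them. The splits by window class and by CpG, the overlap between diets and the gene lists are given only with them. The tables hold no transcript levels, so the tissue was not checked against marker genes. In bulk tissue a lower level in all cells and the absence of methylation in some of them cannot be told apart.

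Most CpGs of the mammalian genome are methylated by DNA methyltransferases, and the CpG-rich islands at gene starts are the main exception. TET enzymes oxidise 5-methylcytosine (5mC), a step on the way to its removal. TET1 is best known at CpG-rich promoters, which are mostly unmethylated, whereas sequence with few CpGs is methylated by default. Oxidative bisulfite treatment leaves 5mC as the only base that reads as methylated, and digestion with MspI (CCGG) and TaqI (TCGA) before sequencing restricts the libraries to the neighbourhood of these sites.

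The first 2 sequences below belong to the gains described first, with large differences between KO and WT embryos. The last 2 belong to members with very many CpG calls, in which the levels hardly differed. They are from mm10 (GRCm38), plus strand, 5′ to 3′, with the CpGs covered at least 5 times in capitals, in each of the 15 KO and WT embryos compared on 30 and 0.1 ppm for the first 2 and in all 35 embryos for the last 2. The other CpGs are in lower case. The windows are next to Zfp366 (chr13:99153032-99153202), in Frk (chr10:34484213-34484361), in Gm10800 (chr2:98666994-98667266) and in Gm10801 (chr2:98662546-98662838).
Zfp366: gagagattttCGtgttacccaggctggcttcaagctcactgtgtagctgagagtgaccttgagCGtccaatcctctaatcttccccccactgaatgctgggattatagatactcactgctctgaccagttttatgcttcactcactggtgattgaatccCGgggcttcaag
Frk: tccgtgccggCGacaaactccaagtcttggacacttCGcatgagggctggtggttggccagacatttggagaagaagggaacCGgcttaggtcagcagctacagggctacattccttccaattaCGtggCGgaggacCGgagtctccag
Gm10800: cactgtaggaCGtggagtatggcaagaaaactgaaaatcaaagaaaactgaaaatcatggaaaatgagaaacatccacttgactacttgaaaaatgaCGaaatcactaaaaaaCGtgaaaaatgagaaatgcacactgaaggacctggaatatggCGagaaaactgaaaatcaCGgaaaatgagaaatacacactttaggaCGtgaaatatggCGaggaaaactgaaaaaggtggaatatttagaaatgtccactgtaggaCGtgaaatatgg
Gm10801: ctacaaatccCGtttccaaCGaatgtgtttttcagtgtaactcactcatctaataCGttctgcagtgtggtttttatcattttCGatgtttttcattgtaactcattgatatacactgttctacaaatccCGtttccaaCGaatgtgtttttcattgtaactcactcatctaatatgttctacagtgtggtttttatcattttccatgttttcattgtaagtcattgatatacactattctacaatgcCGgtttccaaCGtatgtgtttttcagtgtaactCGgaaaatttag

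The members were mostly highly methylated and lay away from gene starts. Their median level in the WT embryos of 3 ppm was 89.7%, the 5th percentile 74.1% and the highest level 98.8%. This level pools reads, so the deepest library, WT replicate 1, weighs most. Its median was 644 CpG calls per member, against 203, 98 and 128 in replicates 2, 3 and 4. 14513 members were at 90% or more (48.0%), 11166 between 80 and 90% (36.9%) and 4583 between 70 and 80% (15.1%). A member had a median of 6 covered CpGs, and 24778 of them (81.9%) had 5 to 9. The reference sequence of a member held a median of 20 CpGs, and 3685 members (12.2%) held 30 or more, so that a member is poor in covered CpGs and not always in CpGs. 97.8% of the members contained a CCGG and 74.6% a TCGA.

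By the GENCODE annotation of mm10, 9985 members (33.0%) overlapped an exon, 7797 (25.8%) lay in an intron, 9343 (30.9%) between genes and 3137 (10.4%) within 1 kb of a transcription start. The median distance to a transcription start was 12.8 kb, and 9555 genes contained at least 1 member. Repeats covered a median of 17.1% of a member, and they covered 50% or more of 5518 members (18.2%). The 17963 windows of the same CpG range with levels under 30% lay elsewhere, with 69.9% within 1 kb of a transcription start, a median distance of 0.665 kb and 0.674% of them at 50% repeats or more. These contrasts follow in part from the rule, which is a rule on methylation, and they were not tested.

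The threshold of 70% did not fall into a gap in the distribution, with 672 members at 70 to 72% and 528 windows at 68 to 70%. The nearest members above it were a window in an intron of the growth factor receptor gene Fgfr1 (chr8:25538001-25539000) and an intergenic one near CT573017.2 (chr17:68898001-68899000). Those nearest below were windows of Rapgef2 and Ank2, both at 69.98%. Within the members single CpGs rarely read as unmethylated. Of 226742 covered CpGs, 128541 (56.7%) were at 90% or more in the WT embryos of 3 ppm, 84859 (37.4%) at 70 to 90%, 11647 (5.14%) at 30 to 70% and 1695 (0.748%) under 30%. The latter were spread over 1566 members (5.17%).

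The members' level was then compared between genotypes and diets, over 20345 members with at least 3 CpGs covered in all 35 embryos and each member weighted equally. In WT embryos it was 87.2, 88.9 and 88.1% on 30 ppm, 88.5, 87.5, 87.9 and 87.5% on 3 ppm, and 87.2 and 88.5% on 0.1 ppm. KO embryos were at 89.97, 90.4, 90.7, 90.8 and 90.4% on 30 ppm, 91.1, 91.8, 90.7, 91.2 and 90.1% on 3 ppm, and 90.8, 91.1, 90.7, 90.2 and 91.3% on 0.1 ppm. On every diet all WT embryos lay below the lowest of the 5 KO embryos. The group means were 88.05% ± 0.886 (SD, n = 3), 87.85% ± 0.483 (n = 4) and 87.82% ± 0.944 (n = 2) in WT and 90.46% ± 0.309, 90.99% ± 0.642 and 90.82% ± 0.412 (n = 5 each) in KO, on 30, 3 and 0.1 ppm. KO thus exceeded WT by 2.41, 3.14 and 3.00 points, of which the value for 3 ppm sets KO against the embryos that chose the members. Expressed as a share of what was unmethylated in WT, KO embryos had lost 20.2, 25.8 and 24.6% of it.

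**Figure D1:**
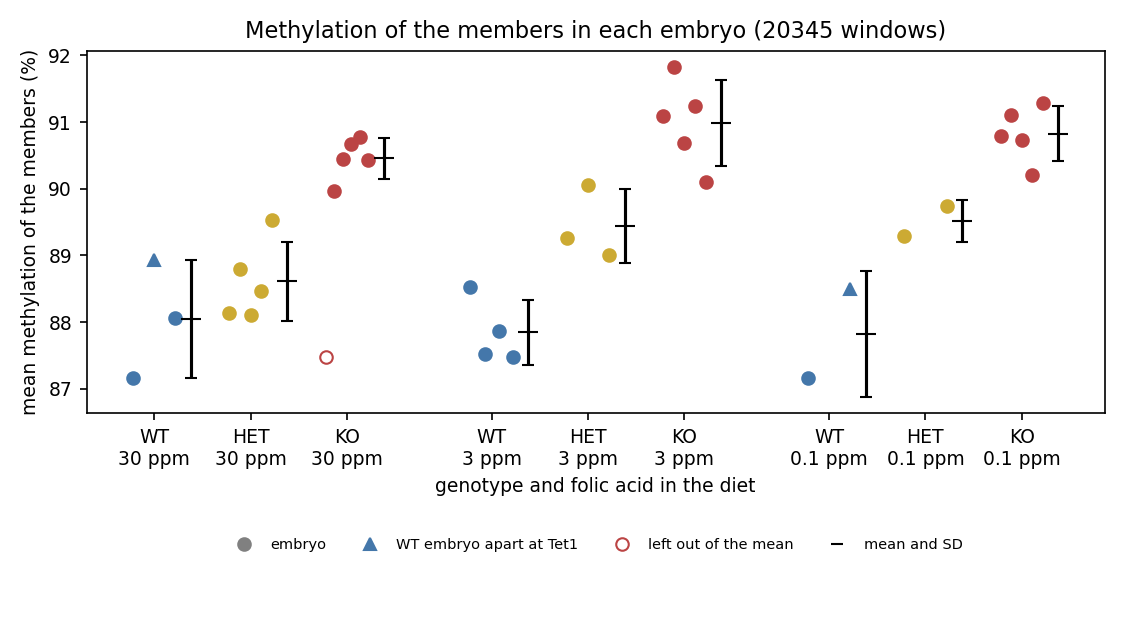
Mean methylation level of 20345 member windows in each embryo (percent, vertical axis, which does not start at 0) by genotype and diet, with the group mean and SD as bars. Triangles are the WT replicates 2 of 30 and 0.1 ppm that stood apart at Tet1, the open circle is the library labelled KO replicate 1 of 30 ppm, left out of the means, and on each diet all 5 filled KO points lie above all WT points.

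The difference was present within litters. In the 8 litters that held both genotypes, KO exceeded WT by 1.79 to 3.63 points, the lowest values being those of the litters of the WT replicates 2 of 30 and 0.1 ppm. 3 of the 8 litters were on 3 ppm and hold the WT embryos that chose the members (2.63 to 3.44 points), and the other 5 span the whole range. Without the WT replicates 2 of 30 and 0.1 ppm the WT levels were 87.6 and 87.2%, and KO exceeded them by 2.85 and 3.67 points. Among embryos labelled norm, a choice made after seeing the data, KO exceeded WT by 2.55, 3.35 and 3.88 points on 30, 3 and 0.1 ppm. The library labelled KO replicate 1 of 30 ppm was at 87.47%, within the range of WT and below each of the other KO embryos. The share of members at 90% or more was 50.55, 49.2 and 49.3% in WT and 63.1, 66.7 and 65.9% in KO on 30, 3 and 0.1 ppm. The share under 70% was 2.89, 2.75 and 3.56% in WT and 0.964, 0.832 and 1.01% in KO.

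HET embryos had group means between those of WT and KO. They were at 88.1, 88.8, 88.1, 88.5 and 89.5% on 30 ppm, 89.3, 90.1 and 89.0% on 3 ppm, and 89.3 and 89.7% on 0.1 ppm. Every KO embryo lay above every HET embryo of its diet, by 1.85, 1.55 and 1.30 points on average. HET exceeded WT by 0.561 points on 30 ppm, where the ranges overlapped, by 1.59 points on 3 ppm (3 of 3 above every WT embryo) and by 1.70 points on 0.1 ppm (2 of 2). Without WT replicate 2 the first and the last became 1.00 and 2.37 points. On 30 ppm the ranges then no longer overlapped, with WT embryos at 87.2 and 88.05% and the lowest HET embryo at 88.11%. In the windows of 5 to 29 CpGs outside the membership, the KO minus WT differences were larger in points, with 11.8, 14.2 and 12 points where WT was at 30 to 70% and 3.09, 3.91 and 3.57 points where it was under 30%, on 30, 3 and 0.1 ppm. As a share of what was unmethylated in WT, the loss was 25.7, 30.3 and 26.7% in the former, but only 3.21, 4.04 and 3.71% in the latter. In 80 methylated windows with 30 or more covered CpGs the differences were near those of the members, at 2.80, 3.00 and 3.01 points.

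The single members were then tested between KO and WT embryos of the 30 and 0.1 ppm diets together, which had no part in the choice of the members. A window entered if it had at least 3 CpGs covered in every embryo of the comparison and an SD between embryos of at least 2 points, and a call needed an adjusted p under 0.05 and a difference of at least 10 points. The test, named the quasi-binomial test, is a logistic model on methylated and unmethylated reads in which the extra spread between embryos is estimated per window and moderated across windows. 22338 members had enough CpGs, and 19602 of them passed the SD filter. 785 of these were gains (4.00%) and 0 were losses, where 14.2% and 0.012% of all 58237 windows tested were. 806 members differed by 10 points or more at an unadjusted p under 0.05, as did 8569 of all 58237 windows. A limma test on log2 ratios called 735 members. At any size, 4724 members were higher and 23 lower in KO at an adjusted p under 0.05 (24.2% of those tested, against 30.6% of all windows). The median difference was 2.43 points in the members and 3.14 points in all windows, with 84.6% and 85.3% of them higher in KO. The members thus had a smaller share of called gains than all windows tested, while a similar share of them was higher in KO. The SD filter cut the windows unequally. It kept 19602 of 22338 members, but of the 17963 windows of the same CpG range under 30% only 4975 were tested. Of those windows 15595 had at least 3 CpGs covered in all 35 embryos. Most windows under 30% are thus missing from all windows tested. The median and the share of gains of all windows without the filter were not counted. A window above 90% has less than 10 points left to gain, and 48.0% of the members were at 90% or more in WT of 3 ppm. The smaller share of gains therefore follows in part from the rule that chose the members.

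Within single diets the calls were alike in direction. On 30 ppm 791 of 20112 members were gains (3.93%) and 3 were losses, where 11.8% and 0.023% of all windows were. On 0.1 ppm 1005 of 21188 members were gains (4.74%) and 4 were losses, where 11.2% and 0.0173% of all windows were. Limma called fewer, 286 on 30 ppm and 128 on 0.1 ppm. With the library labelled KO replicate 1 kept, the 30 ppm count of both directions fell from 794 to 308, and with litter as a replicate block the 0.1 ppm count fell from 1009 to 419. The counts also moved with single WT embryos. Without WT replicate 2 they were 1390 on 30 ppm and 1871 on 0.1 ppm, and without WT replicate 1 they were 476 on 30 ppm and 301 on 0.1 ppm. With both WT replicates 2 left out, 1648 members were called in the comparison of both diets together. Over embryos labelled norm alone, which also leaves out WT replicate 2 of 0.1 ppm, that comparison had 1298 gains and 0 losses, and each of the 11 gains named below was called. Under these alternatives only members were counted, so no share of all windows stands beside the counts.

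**Figure D2:**
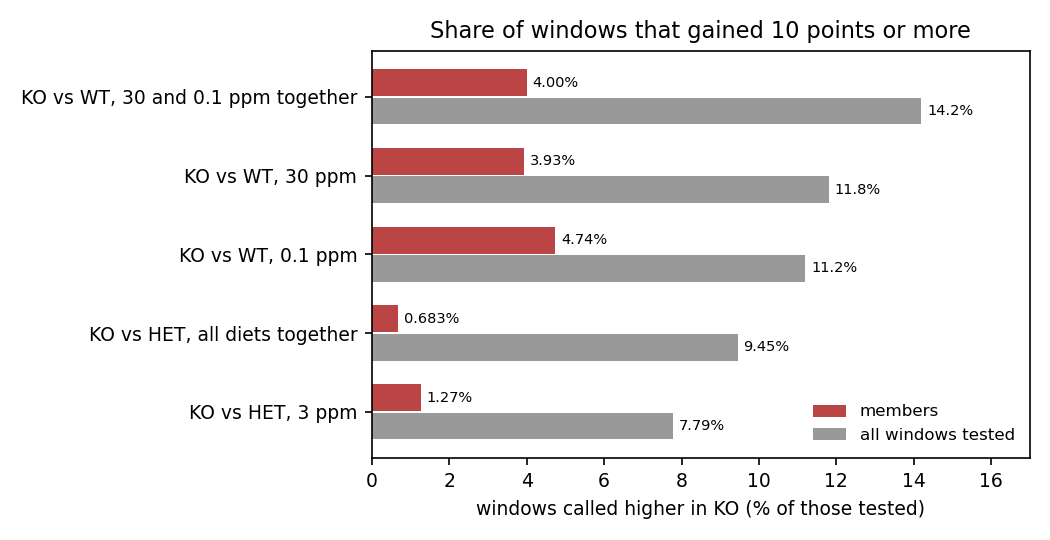
Percent of tested windows called as a gain (adjusted p under 0.05 and 10 points or more) in 5 comparisons, for the members and for all windows tested, with bars from 0. The members' share is the lower in each comparison, for example 4.00% against 14.2% for KO against WT on both diets.

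The gains were mostly members at the lower end of the membership. The 785 gains had a median of 74.1% in WT and 86.6% in KO, with a median difference of 11.8 points and a largest of 24.9. 604 of them lay in genes, with 271 in exons (34.52%), 222 in introns (28.3%), 175 between genes (22.3%) and 117 in promoters (14.9%). Of the 19602 tested members, 6393 lay in exons, 5063 in introns, 6075 between genes and 2071 in promoters. In 422 of the gains every KO embryo lay above every WT embryo within each diet, as in 1154 of the 19602 tested members (5.89%) and 12% of all windows tested.

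The 11 gains named here are among the 12 with the largest difference among gains whose genotypes did not overlap within a diet, at most 1 per gene. Tests used only the CpGs covered in every embryo compared, which were 3 of 8 in Shank3 and in Aipl1 below. The first gain lay 31.3 kb from the transcription start of Zfp366, a zinc finger factor (chr13:99153001-99154000, intergenic, 3 CpGs). It was a member at 71.8% over 7 CpGs, of which the test used 3. On 3 ppm, over 7 CpGs, WT embryos averaged 71.9% and KO embryos 85.9%. On the 2 diets tested the levels are over the 3 CpGs. WT embryos were at 54.2, 62.6 and 47.2% on 30 ppm and at 55.2 and 39.3% on 0.1 ppm, and KO embryos at 67.8, 73.2, 83.7, 68.9 and 68.9% on 30 ppm and at 82.2, 73.3, 73.4, 87.3 and 79.6% on 0.1 ppm. KO exceeded WT by 24.9 points (adjusted p = 0.000372). In the sequence above, the CpG at base 11 had the larger part, with 44.1% in WT and 80.8% in KO, while the last, at base 160, was at 75.5% and 83.5%.

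Frk encodes a tyrosine kinase of the Src family, and the member lies at its promoter (chr10:34484001-34485000, 6 CpGs). WT embryos were at 60.5, 73.9 and 66.1% on 30 ppm and 51.5 and 70.9% on 0.1 ppm, with the higher value of each diet in replicate 2. KO embryos were at 85.8, 85.8, 89.7, 81.4 and 95.4% on 30 ppm and at 81.7, 92.2, 87.0, 88.8 and 91.5% on 0.1 ppm. The difference was 23.9 points (adjusted p = 7.27e-07), and it was present at each of the 6 CpGs, from 15.1 points at base 37 to 38.4 points at base 125. The latter CpG read 29.6 to 55.8% in WT and 70.8 to 100% in KO embryos. On 3 ppm the groups were closer and their ranges overlapped. WT embryos averaged 77.9% (72.3 to 84.4%, 6 CpGs) and KO embryos 88.9% (83.2 to 93.1%, 5 CpGs).

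Shank3 and Dis3l2 had gains in coding exons. In Shank3, a scaffold protein of the postsynaptic density (chr15:89533001-89534000, 3 CpGs), WT embryos were at 60.4, 76.1 and 53.8% on 30 ppm and 67.8 and 63.9% on 0.1 ppm. KO embryos were at 91.7, 87.0, 76.7, 84.4 and 90% and at 100, 83.3, 89.7, 92.0 and 84.3%, higher by 23.3 points (adjusted p = 9.76e-05), with the lowest KO value of 30 ppm close to the highest WT value. In Dis3l2, an exoribonuclease (chr1:87047001-87048000, 5 CpGs), the difference was 22 points (adjusted p = 1.94e-05). Its WT levels spread most widely on 0.1 ppm, with 47.3% and 82.9%, the latter in replicate 2.

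Dip2c was the named gain with the most CpGs, 11 in a coding exon (chr13:9494001-9495000). WT embryos were at 59.2, 74.7 and 76.7% on 30 ppm and at 61.7 and 80.5% on 0.1 ppm, and KO embryos at 87.4 to 96.0% and 91.1 to 96.1%. KO exceeded WT by 21.9 points (adjusted p = 1.01e-07). The other groups were read over the same number of CpGs. HET embryos were at 76.7, 80.3 and 79.1% on 30, 3 and 0.1 ppm on average, WT embryos of 3 ppm at 73.5% and KO embryos of 3 ppm at 92.8%. HET values of 72.2 to 86.4% lay below all KO values of 87.4% or more, and overlapped those of WT.

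In the promoter of the amino acid transporter gene Slc7a7 (chr14:54408001-54409000, 7 CpGs), the WT embryos were at 60.2, 76.0 and 68.5% on 30 ppm and at 66.4 and 66.7% on 0.1 ppm. KO embryos were at 89.6, 83.2, 89.9, 90.5 and 91.5% and at 75, 90.5, 89.4, 88.3 and 91.5%, with 1 embryo of each diet below its group, and exceeded WT by 20.5 points (adjusted p = 1.82e-06). HET embryos ranged from 62.5 to 77.1% on 30 ppm and from 74.3 to 84.1% on 3 ppm, and were at 71.1 and 67.1% on 0.1 ppm. At the promoter of Fmn1, a formin that nucleates actin filaments (chr2:113364001-113365000, 5 CpGs), WT embryos were at 69.1, 77.6 and 63.4% and at 69.6 and 80.2%, and KO embryos at 90.7 to 96.2% and 87.1 to 92.4%. The difference was 19.7 points (adjusted p = 8.60e-08).

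The other 4 named gains were in coding exons. Hpn encodes hepsin, a membrane serine protease (chr7:31103001-31104000, 6 CpGs), and KO exceeded WT there by 20.3 points (adjusted p = 7.88e-05), with WT embryos at 55.9 to 77.8% and KO embryos at 79.4 to 96.6%. On 3 ppm the ranges overlapped, with 79.4 to 85.1% in WT and 80.0 to 93.1% in KO. The differences were 20.5 points in Accs (chr2:93836001-93837000, adjusted p = 1.17e-05), 20.2 points in Aipl1, a chaperone of photoreceptors (chr11:72029001-72030000, adjusted p = 1.10e-05), and 19.9 points in Lypd3 (chr7:24640001-24641000, adjusted p = 0.000722). All 11 kept their call under each alternative and omission in which they could be fitted, except Lypd3 and Fmn1 where 20 points were required.

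**Figure D3:**
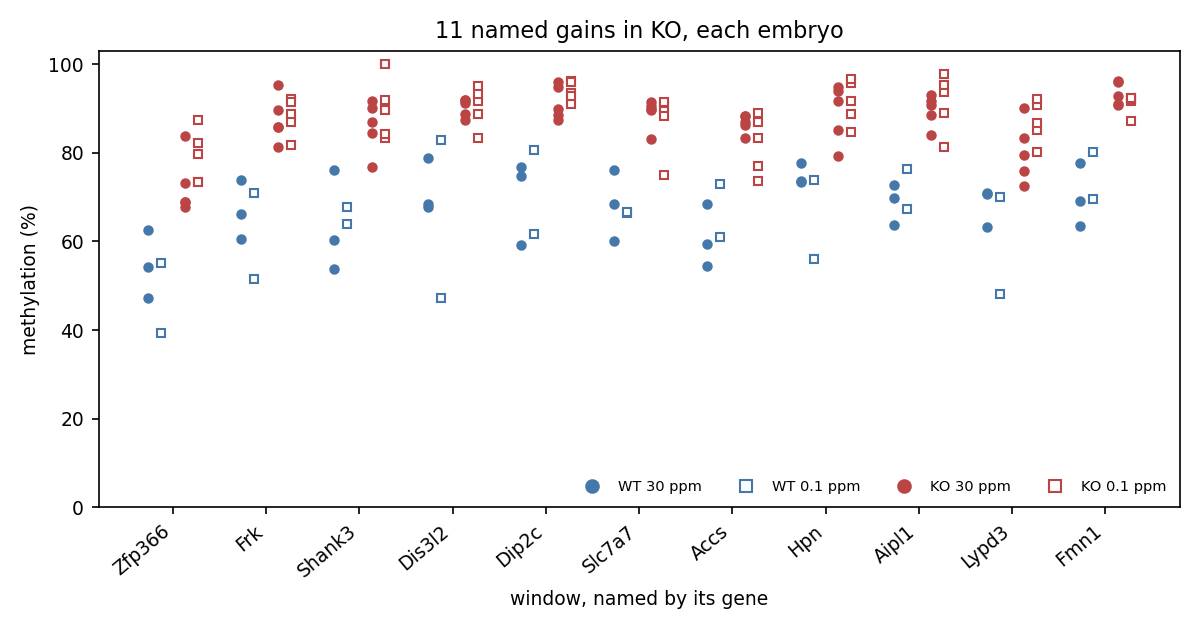
Methylation level (percent) of the 11 named gains in each WT and KO embryo, with 30 ppm as filled circles and 0.1 ppm as open squares. Within a diet every KO embryo lies above every WT embryo, by the rule for naming, and the WT points of Dis3l2 are spread more widely than those of KO.

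The size of the difference followed the level of the member in the WT embryos of 3 ppm, which are not among the embryos compared. Members at 70 to 75% there differed by 6.93 points between KO and WT of the other diets (73.0 against 79.9%), and 26.7% of 1347 were gains. At 75 to 80, 80 to 85 and 85 to 90% the mean differences were 5.71, 4.50 and 2.77 points, and 14.6, 4.26 and 0.462% were gains. At 90 to 95% the difference was 1.48 points over 7324 members and at 95 to 100% it was 0.821 points over 1116. 0.0137% and 0% of the members of these 2 bands were gains. As a share of what was unmethylated in WT, the loss in KO was 25.7, 25.7, 26.0 and 22.7% in the 4 lower bands and 18.5 and 15.7% in the 2 upper ones. In all bands 10 of 10 KO embryos were above every WT embryo, except at 95 to 100%, where 9 of 10 were.

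By distance to unmethylated sequence, the nearest members differed most. Members directly next to a window under 30% differed by 4.47 points (433 members, 11.1% gains), those 2 to 3 windows away by 3.63 points, 4 to 10 away by 3.49 points, 11 to 100 away by 3.17 points, and farther ones by 1.97 points (4439 members, 1.73% gains). The order was nearly the same within bands of level. Among members at 70 to 80% the differences were 7.74, 7.01, 6.87, 6.31 and 4.48 points from the nearest to the farthest, and at 90 to 100% they were 1.68, 1.62, 1.57, 1.51 and 1.03 points. By repeat content, members made mostly of repeats differed least. With under 10% repeats the difference was 3.65 points (6608 members, 5.61% gains), with 10 to 50% it was 3.18 points, with 50 to 90% it was 1.40 points, and with 90% or more it was 0.920 points (1172 members, 0.341% gains). KO embryos had lost 26.6% of the unmethylated share in the first of these classes and 9.26% in the last. These differences between classes are descriptions and were not tested.

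**Figure D4:**
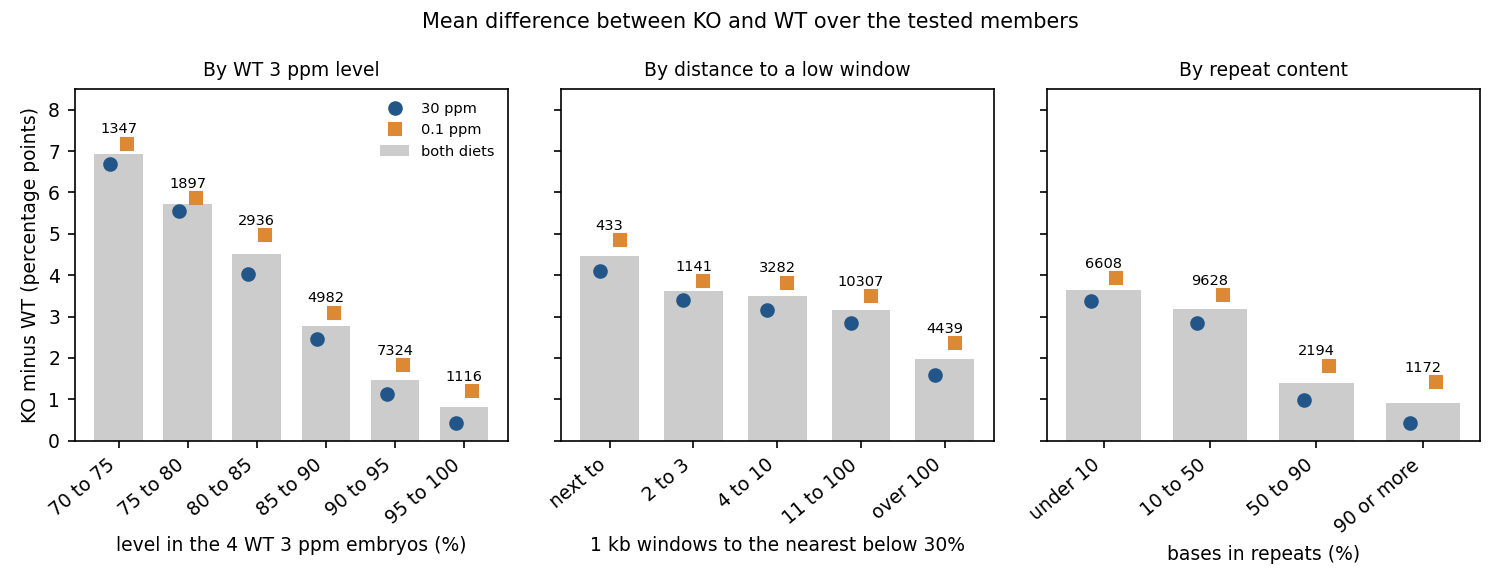
Mean KO minus WT difference (percentage points) of the tested members by their level in WT of 3 ppm, by the number of windows to the nearest window under 30%, and by repeat content, with gray bars for 30 and 0.1 ppm together, dots for each diet and the number of members above. The bars fall from 6.93 to 0.821 points with the level, from 4.47 to 1.97 with distance and from 3.65 to 0.920 with repeat content.

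Gene features made less of a difference. The mean differences were 3.39 points at promoters (5.65% gains), 3.19 in introns (4.38%), 3.16 in exons (4.24%) and 2.56 between genes (2.88%). Members with 20 to 29 covered CpGs differed by 3.89 points (8.96% gains), those with 10 to 19 by 3.30 (5.40%) and those with 5 to 9 by 2.93 (3.63%). On chromosome 10 within 10 Mb of Tet1 15 of 241 tested members were gains (6.22%), against 3.98% elsewhere, while of all 626 windows tested there 81 were (12.9%), below the 14.2% of all windows tested. Leaving out the whole chromosome did not move any of the counts by over 1.5 times.

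The CpGs of the members differed by their neighbouring bases. Read over CpGs covered in all embryos, with the strands joined into 10 contexts of the base before and the base after, CpGs in ACGT had the lowest level of WT and the largest difference, with 81.8% in WT and 86.4% in KO, 4.56 points (7010 CpGs). WT embryos ranged from 80.5 to 83.3% and KO embryos from 85.4 to 87.2%. In GCGC the level was 90.6% in WT and 92.3% in KO, 1.64 points (11031 CpGs). The CpGs at the restriction sites were between these, with 2.90 points in CCGG (88.0 against 90.9%, 19396 CpGs) and 2.64 points in TCGA (86.1 against 88.8%). In each of the 10 contexts 10 of 10 KO embryos were above every WT embryo.

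The few unmethylated CpGs inside members hardly differed in points. CpGs under 30% in the WT embryos of 3 ppm were at 3.12% in WT and 4.10% in KO embryos of the other diets, 0.984 points (972 CpGs). Those at 30 to 50% differed by 10.8 points (713 CpGs), at 50 to 70% by 9.45, at 70 to 80% by 6.66, at 80 to 90% by 3.52 and at 90 to 100% by 1.20 points (84917 CpGs). In points the difference was thus largest at 30 to 50%. As a share of what was unmethylated in WT, the loss in KO was 1.02% under 30%, 19.8% at 30 to 50%, 26.7% at 50 to 70%, 28.3% at 70 to 80%, 25.5% at 80 to 90% and 18.6% at 90 to 100%.

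The 30 and 0.1 ppm comparisons share no embryo, and they were set side by side over the 16359 members tested in both. 293 members were gains in both, that is 39.0% of the 751 gains of 30 ppm and 31.6% of the 928 gains of 0.1 ppm. Beside these shares, 928 of all 16359 members were gains on 0.1 ppm and 751 were on 30 ppm. Of the gains of 30 ppm 731 (97.3%) were also higher in KO on 0.1 ppm (median 9.61 points), where 82.2% of all these members were and the median was 3.38. Of the gains of 0.1 ppm 887 (95.6%) were higher in KO on 30 ppm (median 7.73 points), where 79.5% of all were and the median was 2.62. Whether the KO minus WT difference itself varied with the diet was asked with an interaction term. By the quasi-binomial test it was called in 0 of 19602 members and 0% of all windows, and limma called 0 members. By the quasi-binomial test 276 members of 10 points or more had an unadjusted p under 0.05, as had 1112 of all 58237 windows.

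KO and HET embryos of 3 ppm are again other embryos. Of the 785 gains on 30 and 0.1 ppm, 724 were tested there, and 688 of them (95%) were higher in KO than in HET, with a median of 6.56 points, against 72% and 1.69 points of all 15729 members tested in both comparisons. 119 of them were called (16.4%), against 1.36% of all. Over all members tested on 3 ppm, 255 of 20135 were gains (1.27%) and 1 was a loss, where 7.79% and 0.0184% of all windows were, and limma called 80 gains and 0 losses. Over all diets together 131 of 19181 members were higher in KO than in HET (0.683%) and 0 were lower, where 9.45% and 0.00178% of all windows were called. A limma test on log2 ratios called 129 gains and 0 losses there. By the quasi-binomial test 131 members of 10 points or more had an unadjusted p under 0.05, as had 5337 of all 56285 windows. With 1 embryo left out, the quasi-binomial count over all diets ran from 114 to 205.

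Single gains in these comparisons are described next. At the promoter of Nr3c1, the glucocorticoid receptor (chr18:39486001-39487000), WT embryos of 30 ppm were at 48.2, 62.7 and 48.5% and KO embryos at 89.7, 81.1, 91.5, 71.4 and 79.1%, a difference of 29.4 points (adjusted p = 0.000779). The groups did not overlap. The window was a member at 79.7% over 5 CpGs in the WT embryos of 3 ppm, and the test used 4 CpGs. At the promoter of Tmem14c (chr13:41017001-41018000) the largest difference on 0.1 ppm, 29.9 points (adjusted p = 0.0138), rested on 1 embryo, since WT was at 85 and 44.0% and KO at 96.7, 93.3, 90, 92.0 and 100%. Without WT replicate 2 it was 9.40 points (adjusted p = 0.362). At Gm11985 (chr11:7189001-7190000), the largest gain against HET over all diets, 19 points (adjusted p = 1.75e-06), HET embryos at 50.6 to 78.6% overlapped KO embryos at 64.1 to 93.6%.

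Losses in KO were rare, and the largest of each diet was sensitive to the model. In Tbc1d23, a Golgi protein of vesicle tethering (chr16:57169001-57170000, 7 CpGs), WT embryos of 0.1 ppm were at 92.6 and 89.1% and KO embryos at 68.3, 83.1, 74.7, 77.0 and 77.6%, a difference of -14.7 points with no overlap (adjusted p = 0.000401, and 0.0525 in limma). In Gm7247 (chr14:51434001-51435000), KO embryos of 30 ppm at 42, 28.6, 46.5, 63.8 and 50.6% overlapped WT embryos at 57.0, 73.9 and 66.7%, and the adjusted p was 0.0441 (0.136 in limma). The latter call was also lost when any 1 of 6 of the 8 embryos was left out.

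No member was called between HET and WT embryos of 30 and 0.1 ppm. 0 of 19900 members and 0% of all 61441 windows were called by the quasi-binomial test, and 0 members by limma. By the quasi-binomial test 35 members of 10 points or more had an unadjusted p under 0.05, as had 533 of all windows. The median difference of HET minus WT was 1.22 points, and 70.7% of the members were higher in HET. With litter as a replicate block 5 members were called, and with both WT replicates 2 left out 113 were. The share of all windows called was not counted under these settings, so these counts cannot be set against it.

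Diet differences within a genotype were few in the comparisons tested. The WT embryos of 3 ppm chose the members, so no diet was tested against them. The study reported most of its regions that differ between diets in those WT comparisons. In KO embryos the quasi-binomial test called 0 of 19915 members between 30 and 3 ppm and 0 of 19180 between 0.1 and 3 ppm. It called 0% of all windows in both, and limma called 0 members. By the quasi-binomial test 26 and 30 members of 10 points or more had an unadjusted p under 0.05. Of all 64021 and 59941 windows 394 and 436 had. In HET embryos 1 member was higher and 2 were lower on 30 than on 3 ppm (0.0201% of all windows called), and 2 were higher and 10 lower on 0.1 than on 3 ppm (0.0979%). With 1 embryo left out, the count of both directions for 30 against 3 ppm ran from 2 to 26, and that for 0.1 against 3 ppm also moved. Between 30 and 0.1 ppm in WT 1 member was called (0.00486% of all windows), and with 1 embryo left out the count rose to at most 8. Limma called 0 members in each of these comparisons in HET and WT. By the quasi-binomial test 112, 225 and 158 members of 10 points or more had an unadjusted p under 0.05 in them. Of all 79755, 79713 and 61674 windows 1244, 1922 and 830 had. In B3galt1, a galactosyltransferase (chr2:68005001-68006000), HET embryos of 30 ppm were at 97.5, 92.0, 96.1, 93.7 and 92.8% and those of 3 ppm at 85.8, 80.9 and 79.3%, 12.4 points higher (adjusted p = 0.00223, and 0.811 in limma). In Kif5c, a kinesin of axonal transport (chr2:49629001-49630000), HET embryos of 0.1 ppm were at 91.8 and 90.5% and those of 3 ppm at 78.9, 80.0 and 60.1% (18.1 points, adjusted p = 0.0173, and 0.964 in limma). The intergenic window near Gm37667 (chr4:124140001-124141000) was 14.6 points lower on 30 ppm in HET (adjusted p = 0.0343, and 0.811 in limma).

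1 member was called in 3 of these comparisons. It lies in Myo3a, which encodes a class III myosin, and at the start of the transcript Gm13341 (chr2:22588001-22589000). The window was read over 4 CpGs with 50 to 537 CpG calls per embryo. WT embryos were at 77.1, 87.3 and 94.0% on 30 ppm, at 85.1, 86.1, 82.9 and 66.9% on 3 ppm, and at 53.6 and 43.1% on 0.1 ppm. HET embryos were at 75.3, 74.3, 66.1, 81.2 and 85% on 30 ppm, at 84.7, 85.7 and 87.4% on 3 ppm, and at 56.0 and 64.6% on 0.1 ppm. In both genotypes every embryo of 0.1 ppm was below every embryo of the other diets. In KO embryos this was not so, with 66.9, 69.9, 89.0, 83.5 and 79.6% on 30 ppm, 83.0, 78.9, 50.7, 71.1 and 65.1% on 3 ppm, and 82.3, 63.6, 65.3, 69.1 and 80.4% on 0.1 ppm. The difference of 0.1 minus 3 ppm in HET was -25.6 points (adjusted p = 4.31e-05), that of 30 minus 0.1 ppm in WT was 37.8 points (adjusted p = 0.0104), and that of KO minus HET on 3 ppm was -16.2 points (adjusted p = 0.00403). These calls were not robust to the model. Without the SD filter the adjusted p of the diet differences was 0.591 in HET and 1 in WT, and in limma the 3 values were 0.964, 0.861 and 0.151.

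**Figure D5:**
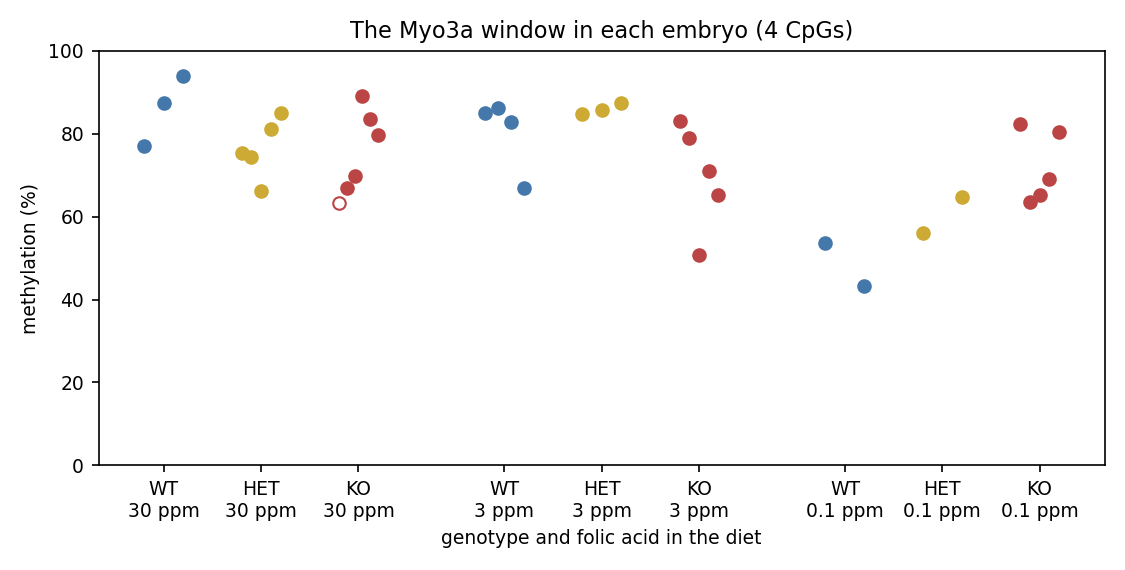
Methylation level (percent) over 4 CpGs of the member in Myo3a in each embryo, by genotype and diet. The WT and HET embryos of 0.1 ppm lie at 43.1 to 64.6%, below the other WT and HET embryos, while KO embryos of 0.1 ppm lie at 63.6 to 82.3%, within the range of the other KO embryos.

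The members with the most CpG calls, that is reads summed over their CpGs, came next. Gm10800 (chr2:98667001-98668000), whose sequence is shown above, had 7115 to 60663 CpG calls per embryo, and its group means lay between 80.4 and 82.4%. 6 of its 8 CpGs in that stretch were at 88.6 to 92.5% in WT, while those at bases 114 and 202 were at 65.4 and 61.8% (66.6 and 61.9% in KO). None of the 8 differed by more than 1.20 points between KO and WT. Gm10801 (chr2:98662001-98663000), with 3026 to 24843 CpG calls, had group means of 69.3 to 71.7%. Its CpGs were very unlike, from 21.4% at base 11 to 96.6% at base 259 in WT. Reads of near-identical repeat copies cannot be told apart, so these levels may be means over copies. The next best covered were windows of Gm33838, Ccr1 and Gm49692, with group means of 81.5 to 84.8%, 84.4 to 86.9% and 85.4 to 91.0%.

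The extremes of the membership were ranked over the CpGs covered in every embryo, not by the level of the rule. Rapgef6, Tmem268 and Gm16585 had the highest levels, with group means of 97.8 to 98.9%, 97.2 to 99% and 97.5 to 99.3%. The lowest were Mpdz (44.9 to 51.6%), Ccdc88c (47.9 to 56.4%) and Gm11401 (50.4 to 55.4%). These 3 were members at 74.3, 70.2 and 70.3% over all their covered CpGs, and the lower values are over the 3 CpGs covered in every embryo.

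Lists of genes with known roles were then read out in the comparison of KO with WT on both diets, by members in or next to their genes. They are read against the 4.00% of all tested members that were gains and the 24.2% that passed at any size, and nothing here is particular to a list. Of the 32 neural progenitor and patterning factors, 12 had a member, and of 20 tested members 1 was a gain and 5 passed at any size. That gain lay in an intron of Gli2, a transcription factor of Hedgehog signalling (11.3 points, adjusted p = 0.00767). Among the 32 genes of neuronal differentiation and synapse, 23 had a member, and 3 of 76 tested members were gains, among them windows of the synaptic scaffold Dlg2 (10.5 points) and the axon guidance ligand Slit1 (10.2). The median differences of these lists were 3.21 and 2.50 points, against 2.43 for all members. Muscle and heart genes had 1 gain in 64 tested members, in the calcium channel Ryr1 (10.2 points), with a median of 2.55 points.

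Of 30 genes of folate and one-carbon metabolism, 17 had a member, with 24 tested and 1 gain. It lay in Aldh1l1, which oxidises formyl-tetrahydrofolate, with WT embryos at 61.9 to 81.5% and KO embryos at 75.4 to 95.5% (14.5 points, adjusted p = 0.00203). Germline genes silenced by methylation had 1 gain in 20 tested members, in Tdrd9, a helicase of the piRNA pathway (13.2 points), and the lowest median of the lists, 0.467 points. The genes of DNA methylation and demethylation had 0 gains in 13 tested members, with 4 past an adjusted p of 0.05 at any size and a median of 1.77 points. On 30 ppm alone, where 3.93% of all tested members were gains, 2 of 77 members of the neuronal list, 1 of 19 of the folate list and 1 of 19 of the germline list were, and 0 of 19, 67 and 15 of the progenitor, muscle and DNA methylation lists. On 0.1 ppm alone, where 4.74% were, the gains were 5 of 83 in the neuronal list, 2 of 21 in the progenitor list, 2 of 68 in the muscle list and 1 of 19 in the germline list, with 0 of 23 in the folate and 0 of 15 in the DNA methylation list.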

How the data were processed

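Libraries were made from MspI and TaqI digested DNA with oxidative bisulfite conversion. The authors trimmed reads with Trim Galore 0.6.10, aligned them to mm10 with Bismark 0.24.1 and removed duplicates with UMI-tools. Deposited tables hold for every CpG a methylated fraction and a read count, which the authors extracted with Bismark. These versions, and methylKit 1.26.0, ChIPseeker 1.36.0, bedtools 2.31.0, deepTools 3.5.5 and R 4.3.1, are from the submitters' processing notes. Fraction times count was a whole number, so methylated reads were recovered. The authors' lists of differential regions were not used here.

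The members and gene lists were chosen with earlier results of these data known. CpGs needed 5 reads. Windows of 1 kb with at least 3 CpGs in every embryo of a comparison and an SD of 2 points were fitted with a logistic model on methylated and unmethylated reads, with the dispersion moderated across all windows as in limma (3.58.1, R 4.3.3) and held at 1 or above, a two-sided F test and Benjamini-Hochberg adjustment over all windows tested (named the quasi-binomial test). It was checked on simulated data. A call needed an adjusted p under 0.05 and 10 points. Levels of the members weight each member equally and carry no test. Reads carry molecular identifiers, so intervals cover counting error only, with a median of 110 CpG calls per member and embryo. Counts of a window are CpG calls, that is reads summed over its CpGs, so a read over several CpGs counts several times. A spread given from read counts alone may thus be too small. Annotation was GENCODE vM21 on GRCm38, and repeats are the lower-case bases of that assembly. HET replicate 2 of 0.1 ppm, the shallowest library, and the library labelled KO replicate 1 of 30 ppm, which the study's own list gives as HET, were left out of the fits. The alternatives were 10 reads, no SD filter, 5 or 20 points, limma on log2 ratios, litter as a block, other member rules, these 2 libraries kept, and embryos, both WT replicates 2 or chromosome 10 left out, and, added after seeing the data, only embryos labelled norm.

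Named windows are the 12 largest gains without overlap within a diet, the largest gain and loss of the other comparisons, the 5 members with most CpG calls, the 3 highest and lowest, and those nearest the 70% limit. Some of these are not reported here. Litters pair embryos by label, and deviations of embryos of the same litter and another genotype correlated by -0.031 to 0.103 (32 pairs), those of other litters by -0.179 to 0.179. Python 3.11.15, numpy 2.4.6, scipy 1.17.1, pandas 2.3.3 and matplotlib 3.10.9 were used.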

Additional observations from a re-analysis of the deposited data

Results flagged for a closer look

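The named windows, the members' level and the shares of members at 90% or more and under 70% were checked for an embryo far from its group. Of 106 groups of 4 or more embryos 5 stood out, all at named windows. Chance gives about 1 in 20 groups. In Slc7a7, 1 KO embryo of 0.1 ppm was at 75% where the next was at 88.3%, and 1 KO embryo of 30 ppm was at 83.2% where the next was at 89.6%. In Fmn1, 1 KO embryo of 0.1 ppm was at 87.1% and the next at 91.6%. These 3 embryos lay below their groups and nearer to the WT embryos, but above all of those of the same diet in Fmn1, and above the WT embryos of 66.4 to 66.7% and of at most 76.0% in Slc7a7. In Gm10801, 1 KO embryo of 30 ppm was at 72.9% and the next at 69.9%. In Gm49692, 1 WT embryo of 3 ppm was at 78.4% and the next at 86.9%.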

How the results depend on the processing

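Counts are of members called in either direction. Under the alternatives and omissions the share of all windows called was not counted. The counts were 785 for KO against WT on both diets together, 794 on 30 ppm, 1009 on 0.1 ppm, 131 for KO against HET over all diets, 256 on 3 ppm, 3 and 12 for 30 and 0.1 against 3 ppm in HET, 1 for 30 against 0.1 ppm in WT, and 0 for HET against WT. No named window and no difference in the members' level changed sign. With 5 points as the minimum they were 3355, 2143, 1885, 1537, 764 and, for 30 against 3 ppm in HET, 6 and for HET against WT 2. With 20 points they were 12, 18, 58, 0, 7, and 0 and 2 in HET for 30 and 0.1 ppm. With 10 reads per CpG they were 502 (both diets), 84 (KO against HET, all diets), 5 and 7 (in HET). With limma they were 286 on 30 ppm, 128 on 0.1 ppm and 80 for KO against HET on 3 ppm. All calls between diets in HET and WT were lost in limma and without the SD filter (0 in each). With both WT replicates 2 left out they were 1648 (both diets), 1390 (30 ppm), 1871 (0.1 ppm), 113 (HET against WT) and 18 (30 against 0.1 ppm in WT), and the members' level differed by 3.67 points on 0.1 ppm. With the library labelled KO replicate 1 kept, 308 were called on 30 ppm. With only embryos labelled norm, an alternative chosen after seeing the data, 1298 were called on both diets, and the members' level differed by 3.88 points on 0.1 ppm. Among members at 80% or more they were 149, 158, 406, 5, 55 and, for 0.1 against 3 ppm in HET, 7, and the members' level differed by 1.80, 2.44 and 2.44 points on 30, 3 and 0.1 ppm. The causes were not tested, except that a larger minimum difference and a membership from 80% can by construction not count more windows.

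With litter as a replicate block, 722 members were called on both diets together, 640 on 30 ppm, 419 on 0.1 ppm, 148 and 263 for KO against HET over all diets and on 3 ppm, 5 for HET against WT, and 0 for the interaction. None of the 19 named calls fitted with the block was lost, and those between diets were not fitted with it, since each litter had 1 diet.

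With 1 embryo left out at a time, counts ran from 524 to 1289 (both diets), 476 to 1390 (30 ppm), 301 to 1871 (0.1 ppm), 114 to 205 (KO against HET, all diets), 234 to 317 (3 ppm), 0 to 17 (HET against WT), 2 to 26 and 3 to 33 (30 and 0.1 against 3 ppm in HET), 0 to 0 and 0 to 1 (the same in KO), 1 to 8 (30 against 0.1 ppm in WT) and 0 to 0 (interaction). The members' level differed by 1.96 to 2.85, 2.93 to 3.37 and 2.33 to 3.67 points on 30, 3 and 0.1 ppm. Single embryos moved counts as follows. The count for both diets was 1289 without WT replicate 2 of 0.1 ppm. On 30 ppm it was 476 and 1390 without WT replicates 1 and 2, and on 0.1 ppm 301 and 1871. For HET against WT it was 17 and 3 without WT replicate 2 of 30 and of 0.1 ppm. KO against HET reached 205 without HET replicate 3 of 0.1 ppm, and 0.1 against 3 ppm in HET was 3 and 33 without HET replicates 1 and 3. For 30 against 3 ppm in HET it was 8, 9, 11, 9 and 26 without HET replicates 1 to 5 of 30 ppm and 8 without replicate 1 or 3 of 3 ppm, and for 30 against 0.1 ppm in WT 8 and 6 without WT replicates 1 and 2 of 30 ppm and 3 and 7 without those of 0.1 ppm. In KO 1 member was called between 0.1 and 3 ppm without replicate 3 of 3 ppm. Where an omission left 1 embryo on 0.1 ppm, that embryo was assumed to vary like the others. For 0.1 against 3 ppm in HET all windows shared 1 dispersion. Over the named windows, 16 of 282 fits with an embryo left out lost the call, as did 9 of 24 in limma and 6 of 24 without the SD filter. The SD between embryos of a group had a median of 3.04 points, against 2.57 from read counts alone.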

Other observations

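Some genes held several gains between KO and WT embryos of 30 and 0.1 ppm. They were picked after their values were seen, and longer genes with more members have more chances. Gm20388 on chromosome 8 had 12 gains in 178 tested members, Cdh23, a cadherin of hair cell tip links, 4 in 19, the calmodulin-binding transcription factor gene Camta1 3 in 30, the homeobox gene Cux2 3 in 15, Glis1 3 in 11 and Ttc28 3 in 10. In Shank3 3 of 6 tested members and in St8sia5, a sialyltransferase, 3 of 4 were gains, where 4.00% of all tested members were. The median differences of the gains were 13.71 points in Shank3 and 12.41 points in St8sia5.

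Few members varied widely between embryos of a group. 12 of 20345 members had an SD within groups above 10 points. The 5 with the largest SD, also picked after their values were seen, were near AC127256.2 (12 points), at the promoter of Mfsd5 (11.5), near the homeobox gene Barx1 (11.4), and in introns of A830018L16Rik (11.2) and of the homeobox gene Cux1 (11.05, where read counts alone give 2.67). In Cux1 (chr5:136403001-136404000, 8 CpGs) the WT embryos of 0.1 ppm were at 40.7 and 89.8%, HET embryos of 30 ppm at 56.2 to 88.8% and WT embryos of 3 ppm at 76.0 to 80.2%.

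The library labelled KO replicate 1 of 30 ppm had 46.6% of the members at 90% or more, where the other KO embryos of that diet had a mean of 63.1%. Its members' level of 87.47% was below both HET embryos of its litter, which had a mean of 88.1%, and its level in Myo3a was 63.3%.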
